A study of Chlamydomonas reinhardtii with 27 samples.

Results

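*Chlamydomonas reinhardtii* cells kept in 200 mM NaCl for 96 h were compared with cells kept in it for 24 h, over every gene of the count table. The comparison rests on 6 of the 27 libraries of the study, 3 at each time, and on all 19267 identifiers, of which 16443 had enough counts to be tested. It asks what still changed in the transcriptome between the end of the first day in salt and the end of the experiment. Both times are a whole number of days after NaCl was added, so they fall at the same clock hour.

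The alga was the wild-type strain GY-D55, grown in BG-11 medium with 16 h of light and 8 h of dark, and NaCl-containing medium was then added to the growing culture. Both groups therefore carry the same genotype and the same 200 mM NaCl and differ in the time since its addition. The description of the treatment does not say whether the light cycle ran on during it. The untreated cells form 1 control group with no time of its own, so longer salt exposure and an older culture cannot be told apart. The experiment was done in triplicate, but the labels do not say that the libraries came from separate cultures, and p-values measure the spread between these libraries only.

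Salt draws water out of an algal cell and lets sodium in. *C. reinhardtii* answers by making glycerol as a compatible solute, by folding and repairing proteins, by removing reactive oxygen species and by adjusting its photosynthetic machinery. A chaperone such as BiP, an Hsp70 of the endoplasmic reticulum, helps secreted proteins to fold, and glycerol is made from a glycolytic intermediate through glycerol-3-phosphate dehydrogenase and a phosphatase. Cells that survive the first hours can settle into an acclimated state, and the 2 times compared here both lie after the early phase.

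The 6 libraries held between 16413533 and 18163964 counts. Nuclear genes of the photosynthetic apparatus were counted in each of them, and the lowest value of any light-harvesting, oxygen-evolving or ribulose bisphosphate carboxylase gene described below was 142 CPM (the count of a gene relative to the size of its library, here scaled by TMM, a trimmed-mean correction for library composition). The number of identifiers with a count was 16298, 16005 and 15571 at 24 h and 16914, 17305 and 16718 at 96 h. The 50 most abundant genes of a library took 27.4%, 29.0% and 31.2% of its counts at 24 h and 24.1%, 21.8% and 24.9% at 96 h. TMM factors were 0.94, 0.88 and 0.79 against 1.13, 1.3 and 1.08. None of these 3 measures overlapped between the groups (exact permutation test, two-sided, p = 0.1, the smallest value 3 against 3 libraries can give). They move with every result below, and their part in it was tested only through the alternatives named. Libraries elsewhere in the series that stood apart were 2 h replicate 1 and 72 h replicate 1, which enter the fit through the shared estimate of the spread. In bulk libraries, fewer cells that carry a transcript and less of it per cell cannot be told apart.

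At 96 h 1796 genes were higher than at 24 h (10.9% of those tested) and 1753 were lower (10.7%), so 3549 or 21.6% were called at an adjusted p below 0.05. Of these, 3418 had 3 libraries of one time entirely above or below the 3 of the other. The calls came from the same libraries, so this is no separate support. Over all genes tested, 18.8% had every 96 h library below every 24 h library. The median log2 fold change was 1.19 among the genes that were higher and -0.82 among those that were lower, and 1097 of the former and 600 of the latter passed an absolute log2 fold change of 1. The split between directions was near even with TMM, with the size factors of DESeq2 used in edgeR (1888 higher, 1607 lower) and with the share of counts in the most abundant genes as a covariate (the composition covariate, 2282 and 2560), but not without a composition scaling. With library totals as the only scaling, 3732 genes were higher and 414 lower, the share of higher among called genes was 90.0% in place of 50.6%, and the median log2 fold change of all genes was 0.44 in place of 0.02.

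With TMM, the direction of change followed the level of a gene. In the lowest decile of genes by mean CPM over all 27 libraries, 7.78% were higher at 96 h and 0.486% lower, and the median log2 fold change was 0.54. In the highest decile, 9.06% were higher and 33.1% lower, with a median of -0.27. The share of genes called lower grew with every decile between, as the plot of calls by level shows. These shares depend on the scaling. The highest decile held 544 lower genes with TMM, but library totals as the only scaling gave 414 lower genes in the whole table. How far the number of counts of a gene sets its chance of being called was not tested.

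**Figure D1:**
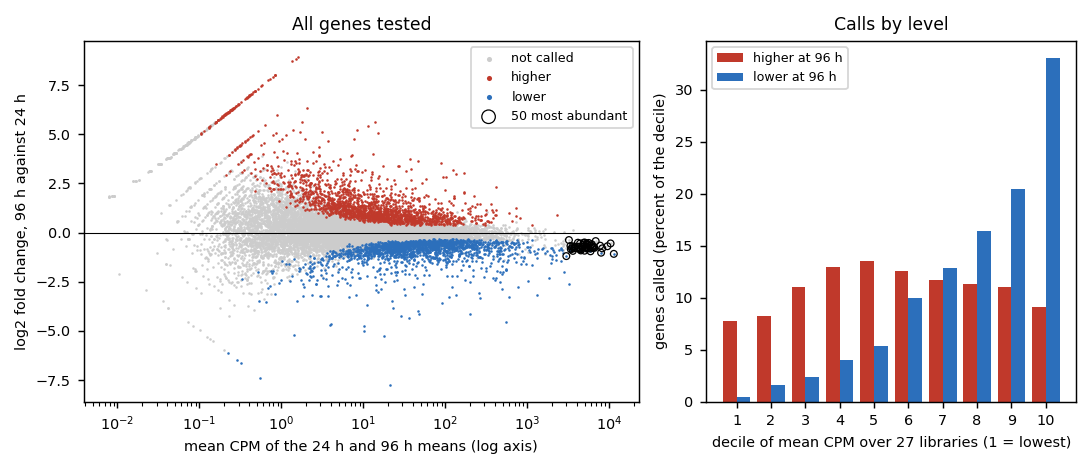
Left, the log2 fold change of each tested gene at 96 h against 24 h over its mean CPM on a log axis, with called genes in red (higher at 96 h) and blue (lower) and the 50 most abundant genes circled. Right, the percent of genes called in each decile of mean CPM over 27 libraries: lower calls go from 0.486% in the lowest decile to 33.1% in the highest.

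Among stress proteins, BiP and glutathione S transferase rose. Of 8 such genes named by the study, 4 were higher at 96 h, 1 was lower and 3 did not pass the test, beside 10.9% higher and 10.7% lower over all genes tested; the median log2 fold change was 0.40 against 0.02 over all genes tested. The study named these genes, like the other groups below, when discussing their changes in these libraries, and compared some with earlier studies. Their counts are therefore no independent evidence of a direction. The group keeps 4 higher and 1 lower in the fit of the 6 libraries and in DESeq2, and has 5 higher and 0 lower with library totals as the only scaling.

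The largest rise among them was in BiP. One BiP gene, CHLREDRAFT_133650, had 0.877, 1.56 and 2.45 CPM at 24 h and 9.64, 8.79 and 11.1 CPM at 96 h. Its libraries did not overlap, and the log2 fold change was 2.61 ± 0.33 (SE, adjusted p = 1.02e-06), a 6.09-fold rise. The other BiP gene, CHLREDRAFT_133859, had 73.8, 61.3 and 108 CPM at 24 h and 169, 146 and 174 CPM at 96 h. It rose 2.02-fold (log2 1.01 ± 0.15, adjusted p = 1.16e-05), again without overlap. Per transcript length the second gene was the more abundant at 96 h, with a mean of 55.9 FPKM, a level corrected for gene length, against 4.83. In control cells the means were 1.99 CPM for CHLREDRAFT_133650 and 178 CPM for CHLREDRAFT_133859, beside means at 96 h of 9.84 and 163 CPM. The 2 genes are near relatives by name, and how reads shared between them were assigned was not tested.

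Glutathione S transferase, which joins glutathione to reactive compounds, rose with the smallest SE of the group. CHLREDRAFT_195543 had 50.2, 54.5 and 46.7 CPM at 24 h and 109, 101 and 99.2 CPM at 96 h. The log2 fold change was 1.03 ± 0.13 (adjusted p = 9.60e-07), and the means at 48 h and 72 h were 66.8 and 78.4 CPM. L-ascorbate peroxidase, which removes hydrogen peroxide at the cost of ascorbate, fell: CHLREDRAFT_192806 had 255, 286 and 367 CPM at 24 h and 188, 164 and 218 CPM at 96 h. The log2 fold change was -0.67 ± 0.18 (adjusted p = 0.00871), but the call ended without 24 h replicate 3 (adjusted p = 0.108), without 96 h replicate 2 (adjusted p = 0.0551) and with library totals as the only scaling (adjusted p = 0.150). Catalase, which also removes hydrogen peroxide, was at 16.3, 27.3 and 19.0 CPM and then at 24.3, 21.4 and 20.4 CPM. Its groups overlapped (log2 0.08 ± 0.19, adjusted p = 0.815), and both lay under the control mean of 86.7 CPM.

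BAX inhibitor 1, a membrane protein that restrains cell death in plants and animals, was higher by a narrow margin. CHLREDRAFT_139760 had 47.5, 55.1 and 81.6 CPM at 24 h and 88.9, 67.7 and 93.5 CPM at 96 h. Replicate 3 of 24 h lay above replicate 2 of 96 h, the log2 fold change was 0.44 ± 0.16 (adjusted p = 0.0436), and 13 of 38 alternatives ended the call, with an adjusted p of up to 0.182 without 24 h replicate 1. HSP70B, the Hsp70 chaperone of the chloroplast, had 169, 158 and 188 CPM at 24 h and 217, 223 and 218 CPM at 96 h. All 3 libraries of 96 h were above those of 24 h, but CHLREDRAFT_126835 did not pass the test over 27 libraries (log2 0.35 ± 0.19, adjusted p = 0.194) and did so in the fit of the 6 libraries (adjusted p = 0.0363). P5CS2, pyrroline-5-carboxylate synthetase of the proline pathway, had 239, 257 and 290 CPM and then 211, 176 and 237 CPM. Here the 96 h libraries were the lower ones, and the test was not passed (log2 -0.33 ± 0.16, adjusted p = 0.137).

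**Figure D2:**
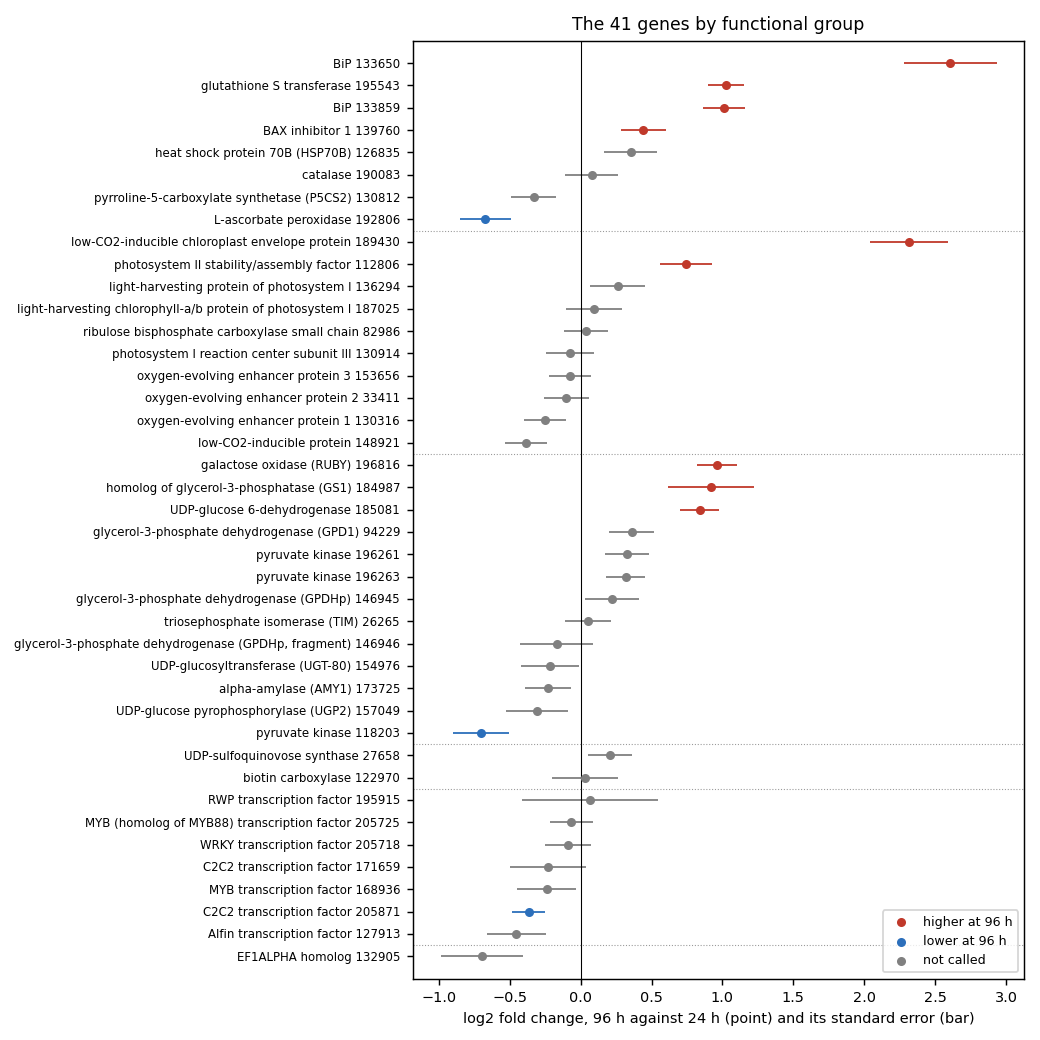
Log2 fold change at 96 h against 24 h (points) with its standard error (bars) for the 41 genes, ordered within groups split by dotted lines: stress proteins, photosynthesis, carbohydrate and glycerol, lipid, transcription factors and the reference gene. The numbers are those of the CHLREDRAFT identifiers; BiP (2.61) and the low-CO2-inducible envelope protein (2.32) stand farthest to the right.

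Of 10 photosynthesis genes, 2 rose and 8 did not pass the test, a share called close to the 21.6% over all genes tested, with a median log2 fold change of -0.02. The largest rise was in a low-CO2-inducible protein of the chloroplast envelope, CHLREDRAFT_189430. It had 122, 140 and 150 CPM at 24 h and 714, 568 and 769 CPM at 96 h. That is a 4.98-fold rise without overlap (log2 2.32 ± 0.28, adjusted p = 5.07e-07). Proteins of this kind are induced when the alga turns on its carbon-concentrating mechanism. The mean was 427 CPM in control cells, 735 CPM at 48 h and 1121 CPM at 72 h, where the libraries ranged from 725 to 1730 CPM. It was 28.2 CPM at 2 h and 61.9 CPM at 4 h, both below the 24 h mean of 137 CPM.

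The other low-CO2-inducible gene did not move with it. CHLREDRAFT_148921 had 1287, 1331 and 1575 CPM at 24 h and 1135, 913 and 1160 CPM at 96 h, the lower values being those of 96 h (log2 -0.39 ± 0.15, adjusted p = 0.0647). The photosystem II stability/assembly factor, which helps to build the reaction centre, rose. CHLREDRAFT_112806 had 49.6, 55.8 and 65.9 CPM at 24 h and 85.8, 91.9 and 109 CPM at 96 h (log2 0.74 ± 0.18, adjusted p = 0.00373).

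None of the 7 structural genes passed the edgeR test, and 0 did so at an unadjusted p below 0.05 or in DESeq2. The oxygen-evolving enhancer proteins 1, 2 and 3, which shield the water-splitting site of photosystem II, had log2 fold changes of -0.25 ± 0.15, -0.10 ± 0.16 and -0.08 ± 0.15. Enhancer protein 1 had 1497, 1599 and 1762 CPM at 24 h and 1362, 1215 and 1509 CPM at 96 h, and its groups overlapped, as did those of the other 2. The 2 light-harvesting genes of photosystem I had log2 fold changes of 0.09 ± 0.20 and 0.26 ± 0.19, photosystem I subunit III -0.08 ± 0.17 and the small chain of ribulose bisphosphate carboxylase 0.04 ± 0.15. Adjusted p-values of these 7 genes lay between 0.244 and 0.897. At both times the 3 enhancer genes were below their control means (for protein 1, 3560 CPM in control cells, 1619 CPM at 24 h and 1362 CPM at 96 h). With library totals as the only scaling, 5 of the 10 genes were higher and 0 lower.

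Among 13 carbohydrate and glycerol genes, 3 were higher at 96 h, 1 was lower and 9 did not pass the test, beside 10.9% higher and 10.7% lower over all genes, with a median log2 fold change of 0.22. Library totals as the only scaling gave 7 higher and 0 lower, and 5 were higher without 72 h replicate 1 and 6 without it and 2 h replicate 1; without 24 h replicate 2, 96 h replicate 1 or 96 h replicate 3 the count was 2. Of the glycerol pathway genes, only the phosphatase homolog was called, and a difference between the steps was not tested. GS1, a homolog of glycerol-3-phosphatase (CHLREDRAFT_184987), had 5.32, 3.75 and 4.83 CPM at 24 h and 9.18, 8.09 and 9.04 CPM at 96 h. The log2 fold change was 0.92 ± 0.30 (adjusted p = 0.0303), on counts of 60 to 180 a library, and the call ended without any one of 4 libraries: 24 h replicate 2 (adjusted p = 0.106) and 96 h replicates 1 (0.0808), 2 (0.0504) and 3 (0.0737).

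The glycerol-3-phosphate dehydrogenases of the step before it did not pass the test. GPD1 (CHLREDRAFT_94229) had 28.0, 25.0 and 22.4 CPM at 24 h and 30.4, 29.0 and 37.5 CPM at 96 h, with no overlap (log2 0.36 ± 0.16, adjusted p = 0.109). GPDHp (CHLREDRAFT_146945) had 309, 388 and 382 CPM and then 450, 366 and 442 CPM (log2 0.22 ± 0.19, adjusted p = 0.462). Its groups overlapped, and both were far over the control mean of 28.4 CPM. The fragment CHLREDRAFT_146946, named as the same enzyme, had 305, 243 and 194 CPM and then 231, 262 and 165 CPM (log2 -0.17 ± 0.26, adjusted p = 0.697). Triosephosphate isomerase, which supplies the substrate of this branch, had a log2 fold change of 0.05 ± 0.16.

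The other rises were in a UDP-sugar enzyme and a galactose oxidase. UDP-glucose 6-dehydrogenase (CHLREDRAFT_185081), which makes the UDP-glucuronate used for matrix sugars, had 159, 158 and 194 CPM at 24 h and 307, 270 and 335 CPM at 96 h. It rose 1.79-fold without overlap (log2 0.84 ± 0.14, adjusted p = 6.30e-05). The gene called RUBY, a galactose oxidase (CHLREDRAFT_196816), had 136, 144 and 125 CPM and then 274, 237 and 278 CPM (log2 0.96 ± 0.14, adjusted p = 1.27e-05). RUBY had means of 73.1 CPM in control cells, 206 CPM at 48 h and 253 CPM at 72 h. UGP2, which makes UDP-glucose itself (CHLREDRAFT_157049), had 259, 271 and 296 CPM and then 243, 184 and 241 CPM and did not pass the test (log2 -0.31 ± 0.22, adjusted p = 0.347). UGT-80, a UDP-glucosyltransferase, had a log2 fold change of -0.22 ± 0.21, and the starch-degrading alpha-amylase AMY1 had -0.23 ± 0.16.

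The 3 pyruvate kinases, the enzyme of the last step of glycolysis, did not share a direction. CHLREDRAFT_118203 fell from 82.0, 97.4 and 101 CPM at 24 h to 60, 63.1 and 49.3 CPM at 96 h (log2 -0.70 ± 0.20, adjusted p = 0.0120). The call ended without 24 h replicate 2 (adjusted p = 0.0513), 24 h replicate 3 (0.0599) or 96 h replicate 3 (0.0679), and with library totals as the only scaling (0.588). CHLREDRAFT_196261 had 56.0, 50.1 and 46.3 CPM and then 63.6, 63.7 and 63.9 CPM (log2 0.33 ± 0.15, adjusted p = 0.134). CHLREDRAFT_196263 had a log2 fold change of 0.32 ± 0.14 (adjusted p = 0.0978). Neither passed the test, although the 96 h values of CHLREDRAFT_196261 all lay above its 24 h values. The 2 lipid genes, biotin carboxylase of fatty acid synthesis and UDP-sulfoquinovose synthase of sulfolipid synthesis, had log2 fold changes of 0.03 ± 0.23 and 0.21 ± 0.16, with overlapping groups.

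Of the genes that the study listed as transcription factors by their likeness to *Arabidopsis thaliana* proteins, 112 were tested, 13 were higher and 6 lower. That is 11.6% and 5.36%, beside 10.9% and 10.7% over all genes, and the median log2 fold change was 0.09. With library totals as the only scaling, 26 were higher and 2 lower, with the composition covariate 16 and 11, and without 96 h replicate 2 12 and 3. The calls came from 9 of the families: 4 MYB and 3 C3H genes, 2 GARP and 2 SBP genes, 1 C2H2 and 1 RWP gene were higher, and 1 gene each of RWP, CSD, SBP, PLATZ, C3H and C2C2 was lower.

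The largest changes were in scarce transcripts. The GARP gene CHLREDRAFT_130971, of a family of plant DNA-binding proteins related to MYB, had 9, 5 and 0 counts at 24 h and 62, 81 and 30 counts at 96 h. Its log2 fold change was 3.23 ± 0.66 (adjusted p = 0.000646). A further GARP gene, CHLREDRAFT_115247, had 21, 3 and 0 counts and then 59, 118 and 49 counts (log2 2.86 ± 0.64, adjusted p = 0.00166). In both the 3 libraries of 96 h were above the 3 of 24 h. The SBP gene CHLREDRAFT_121606 had 2, 10 and 6 counts and then 21, 78 and 24 counts (log2 2.34 ± 0.69, adjusted p = 0.0147). It lost the call without 96 h replicate 2 (log2 1.59, adjusted p = 0.143) or 24 h replicate 1 (adjusted p = 0.0657).

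Better counted factors moved less. The MYB gene CHLREDRAFT_107210 had 14.7, 16.6 and 16.2 CPM at 24 h and 34.2, 33.0 and 34.1 CPM at 96 h, a 2.13-fold rise (adjusted p = 2.39e-05), against 1.69 CPM in control cells. The SBP gene CHLREDRAFT_166327 went from 14.8, 9.20 and 2.95 CPM to 19.6, 24.2 and 20.0 CPM (log2 1.23 ± 0.29, adjusted p = 0.00282), and its control mean was 18.7 CPM. SBP proteins are plant and algal DNA-binding factors, one of which governs the copper response of this alga. An assembled transcript of the MYB family rose by 0.90 ± 0.21 on the log2 scale, and the C3H gene CHLREDRAFT_105687 by 1.49 ± 0.43 (adjusted p = 0.0135; 0.0617 without 96 h replicate 3). The C2H2 gene CHLREDRAFT_117820 rose by 0.87 ± 0.28 (adjusted p = 0.0241), a call that 6 of 38 alternatives ended.

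The RWP gene CHLREDRAFT_195838 showed the largest fall of the factors. RWP proteins are known for nitrogen and gamete regulation in green algae. It had 35.7, 45.2 and 45.3 CPM at 24 h and 16.1, 13.1 and 16.1 CPM at 96 h, a log2 fold change of -1.48 ± 0.25 (adjusted p = 8.33e-05). The CSD gene CHLREDRAFT_126810, with a cold shock domain, had 202, 236 and 283 CPM and then 131, 104 and 131 CPM (log2 -0.98 ± 0.17, adjusted p = 7.66e-05), both under a control mean of 495 CPM. The SBP gene CHLREDRAFT_195928 fell by 0.53 on the log2 scale, the C3H gene CHLREDRAFT_205729 by 0.42 and the PLATZ gene CHLREDRAFT_188583 by 0.52. All 3 lost the call with library totals as the only scaling (adjusted p = 0.639, 0.994 and 0.834), and CHLREDRAFT_188583 lost it in 26 of 38 alternatives.

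Of the 7 factors that the study discussed one by one, only the C2C2 gene CHLREDRAFT_205871 passed the test. It had 178, 197 and 242 CPM at 24 h and 168, 145 and 166 CPM at 96 h (log2 -0.37 ± 0.12, adjusted p = 0.0264), lost the call in 13 of 38 alternatives, and turned to a log2 fold change of 0.064 with library totals as the only scaling. The homolog of MYB88, CHLREDRAFT_205725, had 22.3, 26.8 and 18.9 CPM and then 22.2, 21.7 and 21.2 CPM. Its groups overlapped (log2 -0.06 ± 0.15, adjusted p = 0.812), at a level several times the control mean of 3.80 CPM. The WRKY gene CHLREDRAFT_205718 had a log2 fold change of -0.09 ± 0.16, the Alfin gene CHLREDRAFT_127913 -0.45 ± 0.21, the MYB gene CHLREDRAFT_168936 -0.24 ± 0.21, the C2C2 gene CHLREDRAFT_171659 -0.23 ± 0.27 and the RWP gene CHLREDRAFT_195915 0.07 ± 0.48. Among these 5 only the Alfin gene had groups that did not overlap.

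**Figure D3:**
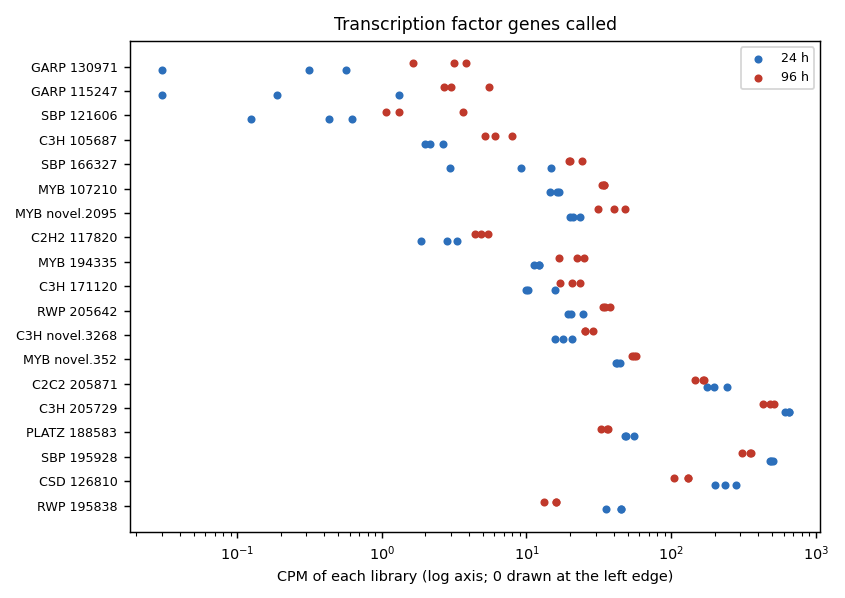
CPM of each library at 24 h (blue) and 96 h (red) on a log axis for the 19 transcription factor genes called, ordered by log2 fold change with the highest on top; a library with no count is drawn at the left edge. The GARP genes on top hold fewer than 6 CPM in every library, and the RWP gene at the bottom falls from 35.7 to 45.3 CPM to 13.1 to 16.1 CPM.

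The reference gene used for quantitative PCR was a homolog of EF1ALPHA, which brings aminoacyl-tRNA to the ribosome. It was among the most abundant genes. Its values were lower at 96 h, but it did not pass the test over 27 libraries or in 34 of 38 alternatives. CHLREDRAFT_132905 had 9853, 11607 and 13863 CPM at 24 h and 7722, 5808 and 8255 CPM at 96 h. Its libraries did not overlap. The log2 fold change was -0.70 ± 0.29 (adjusted p = 0.0894), -0.27 with library totals as the only scaling, and -0.66 in the fit of the 6 libraries (adjusted p = 0.0148).

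The other abundant genes had lower values too, most of them without passing the test. All of the 50 most abundant genes, taken by their mean share of the counts over the 27 libraries, had a log2 fold change below 0, from -1.2 to -0.38 with a median of -0.74. In 49 of them every 96 h library was below every 24 h library in TMM-scaled CPM, which held for 18.8% of all genes tested. The TMM factors of all 96 h libraries were above those of 24 h, which lowers these CPM. The separation was not computed with the other scalings. Only 6 passed the test over 27 libraries. The most abundant of these, CHLREDRAFT_195605, had 12292, 14953 and 19212 CPM at 24 h and 7742, 5996 and 8161 CPM at 96 h (log2 -1.09 ± 0.34, adjusted p = 0.0209). The largest fall of the 50 was in CHLREDRAFT_126163, with 4089, 4043 and 4407 CPM and then 1843, 1626 and 1993 CPM (log2 -1.2 ± 0.35, adjusted p = 0.0144).

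How many of the 50 were called differed widely between alternatives. The count was 46 in the fit of the 6 libraries, 27 without 2 h replicate 1, 15 without 72 h replicate 1 and 45 without both, but 0 without 96 h replicate 2 and 1 without 96 h replicate 1, 24 h replicate 2 or 24 h replicate 3. With library totals as the only scaling, 49 of the 50 were still below 0, with a median of -0.32. With the composition covariate, 47 were below 0, with a median of -0.21. As a set, the 50 took 27.1%, 28.7% and 31.0% of the counts at 24 h and 23.8%, 21.4% and 24.5% at 96 h. The genes were chosen from levels in these same libraries, and fewer such transcripts and more of all others cannot be told apart in shares of a library.

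**Figure D4:**
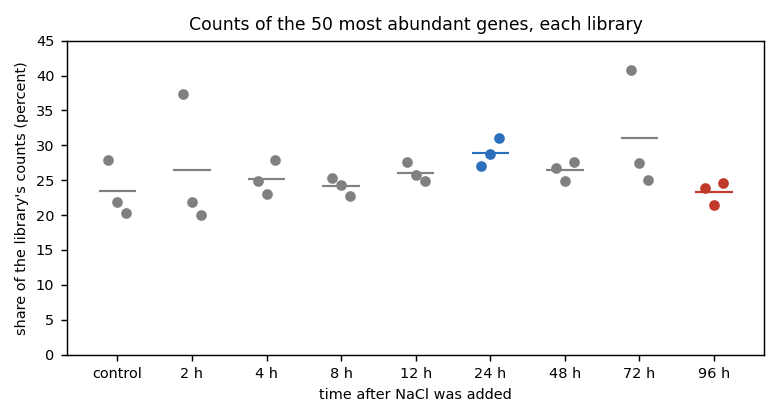
Share of each library's counts in percent (points) taken by the same 50 most abundant genes, with the mean of each condition (line), from control cells to 96 h after NaCl. The 3 libraries of 96 h (red, 21.4% to 24.5%) lie below the 3 of 24 h (blue, 27.1% to 31.0%); replicate 1 of 72 h reaches 40.8% and replicate 1 of 2 h 37.4%.

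The genes with the most extreme changes carry no name in the sources used, so they are given by identifier and values. They were taken from 2764 genes that were called, did not overlap and had a mean of at least 100 counts, 1190 of them higher and 1574 lower. The 10 highest rose 12.6-fold to 49.2-fold. At the top, CHLREDRAFT_155007 had 0.313, 0.501 and 0.865 CPM at 24 h and 11.2, 22.1 and 48.8 CPM at 96 h (log2 5.62 ± 1.70, adjusted p = 0.0184). Its 96 h libraries were spread more than 4-fold, and the call ended without any one of 24 h replicates 1, 2 and 3 and 96 h replicate 3 (adjusted p of up to 0.0662). Its mean was 1.66 CPM in control cells and 45.1 CPM at 4 h, beside 0.559 CPM at 24 h. The libraries of this gene ranged from 0.719 to 47.7 CPM at 48 h and from 0.269 to 48.1 CPM at 72 h. The other 9 stayed called in every alternative that tested them, which for 7 of them left out the one with at least 10 counts in each of the 6 libraries.

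CHLREDRAFT_167849 and CHLREDRAFT_167850 are direct neighbours in the reference annotation, with 0 genes between them. The first had 0.313, 0.188 and 1.08 CPM at 24 h and 20.5, 19.3 and 26.2 CPM at 96 h (log2 5.40 ± 0.75, adjusted p = 5.49e-06). The second had 0.250, 0.814 and 0.216 CPM and then 14.8, 15.4 and 19.3 CPM (log2 5.23 ± 0.64, adjusted p = 7.34e-07). Both were close to 0 in control cells (0.109 and 0.0203 CPM) and passed through 2.48 and 2.90 CPM at 48 h and 6.44 and 4.87 CPM at 72 h.

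Like CHLREDRAFT_155007, the other 7 of the 10 had low values at 24 h after higher ones in control cells. CHLREDRAFT_192908 had 1.57, 0.375 and 0.648 CPM at 24 h and 32.1, 17.3 and 38.2 CPM at 96 h (log2 5.06 ± 0.42), beside 22.6 CPM in control cells. CHLREDRAFT_59842 had 0.313, 1.25 and 0 CPM and then 15.6, 13.9 and 14.8 CPM (log2 4.76 ± 0.45), beside 1.18 CPM in control cells and 66.3 CPM at 2 h. CHLREDRAFT_145657, CHLREDRAFT_189163 and CHLREDRAFT_154289 rose by 3.99 ± 0.40, 3.93 ± 0.46 and 3.91 ± 0.41. CHLREDRAFT_165809 went from 5.95, 3.94 and 5.40 CPM to 64.5, 77.4 and 64.5 CPM (log2 3.75 ± 0.31). The assembled transcript number 949 went from 4.57, 5.76 and 10 CPM to 84.7, 78.0 and 91.8 CPM (log2 3.65 ± 0.23, adjusted p = 1.06e-11). Each of these 7 had a higher mean in control cells than at 24 h, as the plot of the time courses shows. Ranking by the rise from 24 h favours genes with low values at 24 h. A low point there is thus partly set by the choice of genes, and its share over all genes was not computed.

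**Figure D5:**
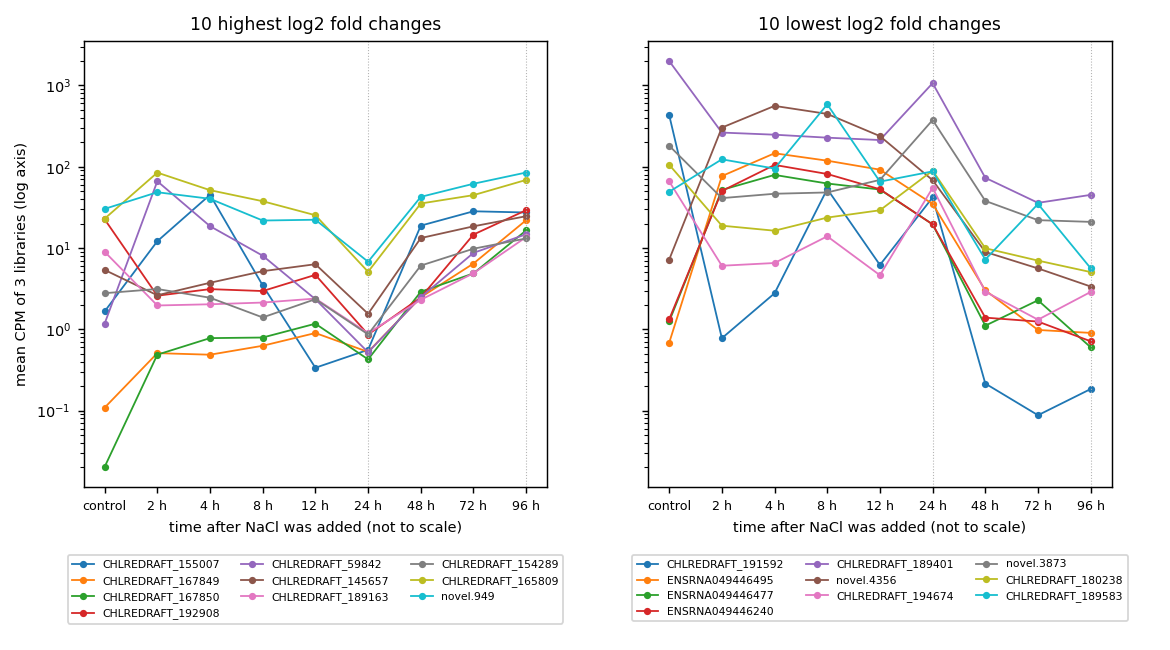
Mean CPM of 3 libraries on a log axis in control cells and at each time after NaCl, for the 10 genes with the highest (left) and the 10 with the lowest (right) log2 fold change at 96 h against 24 h; dotted lines mark 24 h and 96 h. On the left most lines dip at 24 h, which the ranking by the rise from 24 h favours. On the right CHLREDRAFT_191592 falls from 41.9 CPM at 24 h to 0.184 CPM at 96 h.

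The 10 genes with the lowest log2 fold changes stayed called in every alternative that tested them; the one with at least 10 counts in each of the 6 libraries did not test CHLREDRAFT_191592 and ENSRNA049446477. CHLREDRAFT_191592 had 600, 739 and 581 counts at 24 h and 9, 2 and 0 counts at 96 h. In CPM that was 37.6, 46.2 and 41.9 and then 0.459, 0.0940 and 0, a log2 fold change of -7.76 ± 0.47 (adjusted p = 3.17e-12) whose size depends on how the fit treats the empty library. The mean was 432 CPM in control cells, 0.777 CPM at 2 h, 53.1 CPM at 8 h and 6.19 CPM at 12 h. It was 0.215 CPM at 48 h and 0.0878 CPM at 72 h.

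CHLREDRAFT_189401 was the most abundant of the 10 at 24 h per transcript length, with 407 FPKM. It had 1378, 915 and 904 CPM at 24 h and 41.8, 58.1 and 35.3 CPM at 96 h (log2 -4.56 ± 0.36, adjusted p = 4.85e-10). The control mean was 1996 CPM, and the means were 263 CPM at 2 h, 213 CPM at 12 h, 73.0 CPM at 48 h and 35.9 CPM at 72 h. CHLREDRAFT_194674, CHLREDRAFT_180238 and the assembled transcript number 3873 likewise had high means in control cells (66.0, 106 and 181 CPM) and at 24 h (54.9, 89.5 and 375 CPM) and low ones at 96 h (2.88, 5.06 and 21 CPM). Between control and 24 h they were lower, with 6.05, 18.8 and 41.1 CPM at 2 h and 4.63, 29.1 and 68.9 CPM at 12 h. CHLREDRAFT_189583 had 77.6, 73.9 and 111 CPM and then 5.61, 3.62 and 7.66 CPM (log2 -3.97 ± 0.23), beside 34.8 CPM at 72 h.

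A different course was shared by 3 noncoding RNA identifiers and the assembled transcript number 4356, which were low in control cells and highest at 4 h. Means at 4 h were 146 CPM for ENSRNA049446495, 79.3 CPM for ENSRNA049446477, 105 CPM for ENSRNA049446240 and 560 CPM for the transcript. By 24 h these means had come down to 34.8, 19.6, 19.5 and 68.3 CPM. ENSRNA049446495 had 24.9, 33.5 and 46.1 CPM at 24 h and 0.714, 0.893 and 1.10 CPM at 96 h (log2 -5.26 ± 0.38, adjusted p = 1.08e-10), beside 0.682 CPM in control cells. ENSRNA049446477 had 15.6, 17.7 and 25.4 CPM and then 0.969, 0.282 and 0.551 CPM (log2 -5.02 ± 0.55), and ENSRNA049446240 had 14.1, 14.3 and 30.2 CPM and then 0.612, 0.752 and 0.772 CPM (log2 -4.76 ± 0.35). At 48 h their means were already 3.02, 1.11 and 1.39 CPM. The transcript number 4356 had 69.7, 56.1 and 79.1 CPM and then 3.47, 3.85 and 2.76 CPM (log2 -4.34 ± 0.28), beside 7.20 CPM in control cells. Whether near-identical copies of these RNAs share reads was not tested.

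Identifiers of the organelle genomes leaned to lower values. Of 67 tested identifiers that begin with DAA, which stand for chloroplast-genome proteins, 21 were lower (31.3%, beside 10.7% of all genes), 0 were higher (beside 10.9%) and 65 had a log2 fold change below 0, with a median of -1.51. No DAA identifier was higher at an unadjusted p below 0.05 either (0, against 32 lower), and DESeq2 called 0 higher and 26 lower. They took 0.0432%, 0.0640% and 0.0694% of the counts at 24 h and 0.0197%, 0.0228% and 0.0232% at 96 h. The groups did not overlap (exact permutation p = 0.1, the smallest possible, adjusted p = 0.12 over 6 classes), and both were above the control mean of 0.00232%. With library totals as the only scaling, 17 were lower and the median was -1.07, and with the composition covariate 16 were lower, 1 was higher and the median was -0.91. Chloroplast transcripts lack a stable poly-A tail and the libraries were made from poly-A RNA, so these shares are of what passed that selection. The 8 AAB identifiers, of the mitochondrial genome, included 4 that were lower and 0 that were higher (median -0.83; 0 and 5 at an unadjusted p below 0.05, 0 and 4 in DESeq2). The lower count was 0 without 96 h replicate 2, 1 without 24 h replicate 3 and 1 with library totals as the only scaling, and the median was -0.41 with the composition covariate. Their share went from a mean of 0.00935% to 0.00688% (adjusted p = 0.12).

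Of 12968 tested CHLREDRAFT genes 1544 were higher (11.9%) and 1392 lower (10.7%), beside 10.9% and 10.7% over all genes tested. Of 3358 tested transcripts that the authors assembled themselves 252 were higher (7.50%) and 329 lower (9.80%). With library totals as the only scaling these counts were 3227 and 319 for CHLREDRAFT genes and 502 and 72 for assembled transcripts, and the lower count of the latter was 197 without 24 h replicate 2 and 204 without 24 h replicate 3. The assembled transcripts took 7.38%, 7.28% and 6.72% of the counts at 24 h and 8.11%, 8.42% and 7.60% at 96 h, without overlap (exact permutation p = 0.1, adjusted p = 0.12). Of 32 tested noncoding ENSRNA identifiers 0 were higher (beside 10.9% of all genes) and 6 lower (18.75%, beside 10.7%) in edgeR, the 3 above among the lower. The counts were 2 and 8 at an unadjusted p below 0.05, 3 and 6 in DESeq2, and 2 and 5 with library totals as the only scaling. The share of the ENSRNA identifiers went from a mean of 0.0118% to 0.00651%. This share includes the 3 above, which fell 27.1-fold to 38.4-fold. The median log2 fold change of the 32 was 0.004, and 15 of them were below 0, so the class did not fall as a whole. Of 10 tested EPCRG identifiers 0 were higher and 1 lower in edgeR (10%, near the 10.7% of all genes). The counts were 0 and 3 at an unadjusted p below 0.05 and 0 and 1 in DESeq2. They were 1 and 0 with library totals as the only scaling and 2 and 0 with the composition covariate. The EPCRG shares of the counts overlapped (exact permutation p = 0.5).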

How the data were processed

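Per the labels and the study's methods, the authors aligned paired reads of poly-A RNA with HISAT2 2.0.5, assembled transcripts with StringTie 1.3.3b and counted reads per gene with featureCounts; the genome and annotation came from Ensembl Genomes, and the assembly name is not given in the sources used here. The deposited counts are raw. The deposited FPKM carry a median-of-ratios scaling (checked on 6110 genes) and serve only to compare levels between genes and as an alternative for class shares. The library kit does not mark strand, so overlapping and antisense genes cannot be told apart.

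Counts of all 27 libraries were fitted with edgeR 4.0.16 (quasi-likelihood test, TMM, filterByExpr, 1 term for each of 9 conditions), contrast 96 h minus 24 h, two-sided, Benjamini-Hochberg over 16443 genes, called at an adjusted p below 0.05. The SE is the absolute log2 fold change over the square root of F. Alternatives, among them DESeq2 1.42.0, are given in the closing section. CPM use TMM-scaled totals.

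Genes named are 41 named by the study; the 10 highest and 10 lowest of the called, non-overlapping genes that averaged 100 counts or more, and the same among genes with a name; up to 4 called genes a group; up to 10 called transcription factors; and up to 3 a direction outside the nuclear classes, where 0 were higher. Members and lists were chosen with earlier results of these data known. Further gene lists by symbol had no members, because the reference table (v5.5, 17742 genes, 12541 identifiers matched) gives locus tags only. No columns were left unmatched (0).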

Additional observations from a re-analysis of the deposited data

How the results depend on the processing

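The 1796 higher and 1753 lower genes became 2183 and 1779 with DESeq2, 1888 and 1607 with its size factors in edgeR, 1778 and 1763 in the fit of the 6 libraries, 1746 and 1698 with no filter on low counts, 1625 and 1578 with at least 10 counts in each of the 6, and 1355 to 2337 and 1186 to 1964 when each of the 27 libraries was left out in turn. An absolute log2 fold change above 1 left 1097 and 600, and an unadjusted p below 0.05 gave 2796 and 2649. Chosen after seeing the data, library totals without TMM gave 3732 and 414, leaving out 2 h and 72 h replicate 1 together 2733 and 2329, the composition covariate 2282 and 2560, and the 12 libraries of 24 h to 96 h 1682 and 1717. DESeq2 kept 1791 of the higher and 1698 of the lower genes. The causes were not tested.

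Replicate numbers do not pair the samples by any label. Same-numbered libraries of 24 h and 96 h deviated from their group means with correlations of -0.12, -0.05 and 0.36. With a replicate block the counts were 1758 and 1757 over 27 libraries and 2132 and 1989 over 6.

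Of 50 called genes named here, 35 stayed called in every alternative that tested them (38 for 24 genes and 37 for 11) and 15 lost the call in at least 1. With library totals without TMM, CHLREDRAFT_205871 turned to 0.064 and the photosystem I subunit III gene CHLREDRAFT_130914 to 0.35 (adjusted p = 0.0329 in edgeR). Low counts limit the 2 GARP genes and the SBP gene CHLREDRAFT_121606, which rest on 0 to 21 counts a library at 24 h. As shares of FPKM in place of counts, the differences at 96 h minus 24 h were -0.0391 percentage points for DAA, -0.00151 for AAB and -0.0181 for ENSRNA identifiers, all in the direction found in counts, and -0.00116 for EPCRG identifiers, against the direction in counts, where their groups overlapped.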
